A study of Homo sapiens with 4 samples.

Results

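The genes described here are those of the WNT signalling pathway, followed through the N6-methyladenosine (m6A) sites of their transcripts in HEK293T, a line grown out of human embryonic kidney and of wild-type genotype per the labels. They were chosen by name: WNT ligands, FZD receptors, LRP5 and LRP6, DVL1 to DVL3, AXIN1 and AXIN2, the TCF7 family, LGR receptors, tankyrases, GSK3A and GSK3B, BCL9 genes, and APC, CTNNB1, LEF1, DIXDC1, ZNRF3, PORCN, WLS and PYGO2. A site was tested when every one of the 4 libraries listed it with 20 or more reads carrying A or G. This left 400 sites in 39 genes, of 78509 sites in the series and 10782 named genes. GLORI, the assay used, deaminates adenosine that has no methyl group, which is then sequenced as G. Adenosine with the methyl group resists and is sequenced as A, so the share of A reads, in percent, gives the m6A level of a site. Ascorbic acid cells (2 libraries) were seeded for 24 h and then kept in ascorbic acid for 36 h, the medium being renewed every 6 h, and control cells (2 libraries) were from the same line. Neither the dose nor the handling of the control medium is stated in those labels. No label says that the 2 libraries of a group came from separate cultures, so every p-value below measures only the spread between these libraries, which may be technical.

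WNT ligands are secreted lipid-modified proteins that bind FZD receptors together with the co-receptors LRP5 or LRP6. Without a ligand, a destruction complex built on AXIN and APC lets GSK3 kinases mark β-catenin (CTNNB1) for breakdown; with one, DVL proteins draw AXIN to the membrane, and β-catenin reaches the nucleus to act with TCF and LEF factors. The m6A mark is placed on messenger RNA mainly by METTL3 with METTL14, mostly where the A is preceded by G and followed by C, and is removed by FTO and ALKBH5. Those demethylases are iron-dependent dioxygenases, a class of enzymes for which ascorbic acid is a known cofactor.

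Sequence could be read for 8 tested sites in RefSeq windows of 250 bases before to 50 after a start of their own gene. The build was GRCh38.p14, and all 39 symbols matched. For WNT5A the window, 55487257 to 55487556, lies inside the RefSeq gene span of 55465715 to 55505263, away from its outer start. The 8 are shown because they include both GSK3A sites whose fall is described below and the site at the annotated first base of CTNNB1. Each line gives 21 bases of the transcript strand, 5′ to 3′, with the A of the listed site at the centre of the 5 bases in capitals.
GSK3A, minus strand, chr19:42242697-42242717: gcttttgtGGACTtcatttcc
GSK3A, minus strand, chr19:42242773-42242793: attaccctGGACTccatttcc
CTNNB1, plus strand, chr3:41199495-41199515: gcgccattTTAAGcctctcgg
WLS, minus strand, chr1:68232513-68232533: cggagcggCCACAatcacagc
WNT5A, minus strand, chr3:55487295-55487315: tctccgtgGAACAgttgcctg
WNT5A, minus strand, chr3:55487324-55487344: tcgctgatGGACGttggaaac
WNT5A, minus strand, chr3:55487442-55487462: gagtagtgGTACAtttttttc
WNT5A, minus strand, chr3:55487508-55487528: gtgtgaatGAACTgggggcac
Of these 8 sites, 7 had C after the A and 3 held the A inside GGAC. Over the 2028 tested sites of all genes that fell in such windows, on the transcript strand, the centre was A in all, C followed it in 42.9%, and GGAC was present in 12.1%. The CTNNB1 site, at the annotated first base, is the exception among the 8, with TTAAG. Which methylated form of A it carries was not tested. Of the 8, only the GSK3A sites passed the test: the site in the first line had 67.6% and 66.3% m6A in ascorbic acid cells, against 88.1% and 92.5% in control cells, and the site in the second line had 31.4% and 36.8%, against 55.2% and 61.9% in control cells. The remaining 6 had adjusted p-values of 0.0517 to 0.706.

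The ascorbic acid libraries listed 135205 and 143518 sites with 25146378 and 26816350 A plus G reads, and the control libraries 132989 and 144171 sites with 22592887 and 28562744 reads. Sites of these genes numbered 668 and 674 in ascorbic acid cells and 665 and 650 in control cells, and 43 of the genes chosen by name had a site in some library. Median depth over the 400 sites was 82 and 102 reads in ascorbic acid cells and 86 and 86.5 in control cells. The median share of A left unconverted in the member genes, taken from the deposited conversion rates, was 3.24% and 3.20% in ascorbic acid cells and 3.18% and 4.57% in control cells; control library 2 stood highest. Of 11 genes known from HEK293 cells, 7 had a listed site in every library, and of 11 genes of other cell types none had one in any library.

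Ascorbic acid cells had lower m6A over much of the pathway. Of the 400 sites, 78 fell (19.5%), 4 rose and 318 did not pass edgeR's quasi-likelihood test at an adjusted p of 0.05; over all sites tested, 25.7% fell and 0.22% rose. The median site level was 42.9% and 41.7% in the 2 ascorbic acid libraries and 49.0% and 50.7% in the 2 control libraries. The median change was -4.28 percentage points, against -4.89 over all sites. At 197 sites, or 49.25%, the higher ascorbic acid library was under the lower control library, where the share over all sites was 55.4%. The reverse order held at 21 sites, 5.25%, where the share over all sites was 4.22%.

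With reads added up per gene, a read that spans several sites being counted at each, 23 of the 39 genes fell (59.0%), against 56.8% of all genes, and none rose, against 0.297% of all genes; the same edgeR test gave 0 rises among these genes at an unadjusted p under 0.05 too, and limma and DESeq2 gave 0. The mean gene level was lower in ascorbic acid cells in 35 genes and higher in 4. The median change in log2 odds was -0.34, against -0.39 over all genes. The member genes carry more sites than most, with a median of 9 against 4 over all genes. With at least 3 tested sites, 63.9% of 36 member genes fell, against 68.3% of all such genes, and with at least 10 sites 64.7% of 17 fell, against 78.9%. With the same minimum number of sites, no share of falls above the background was thus seen. The description below is of which genes moved and by how much. In 13 genes the fall passed in the main setting and in all 11 alternative settings: LRP5, LRP6, FZD3, ZNRF3, DVL1, DVL3, AXIN1, GSK3A, GSK3B, CTNNB1, TNKS1BP1, LEF1 and TCF7.

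**Figure D1:**
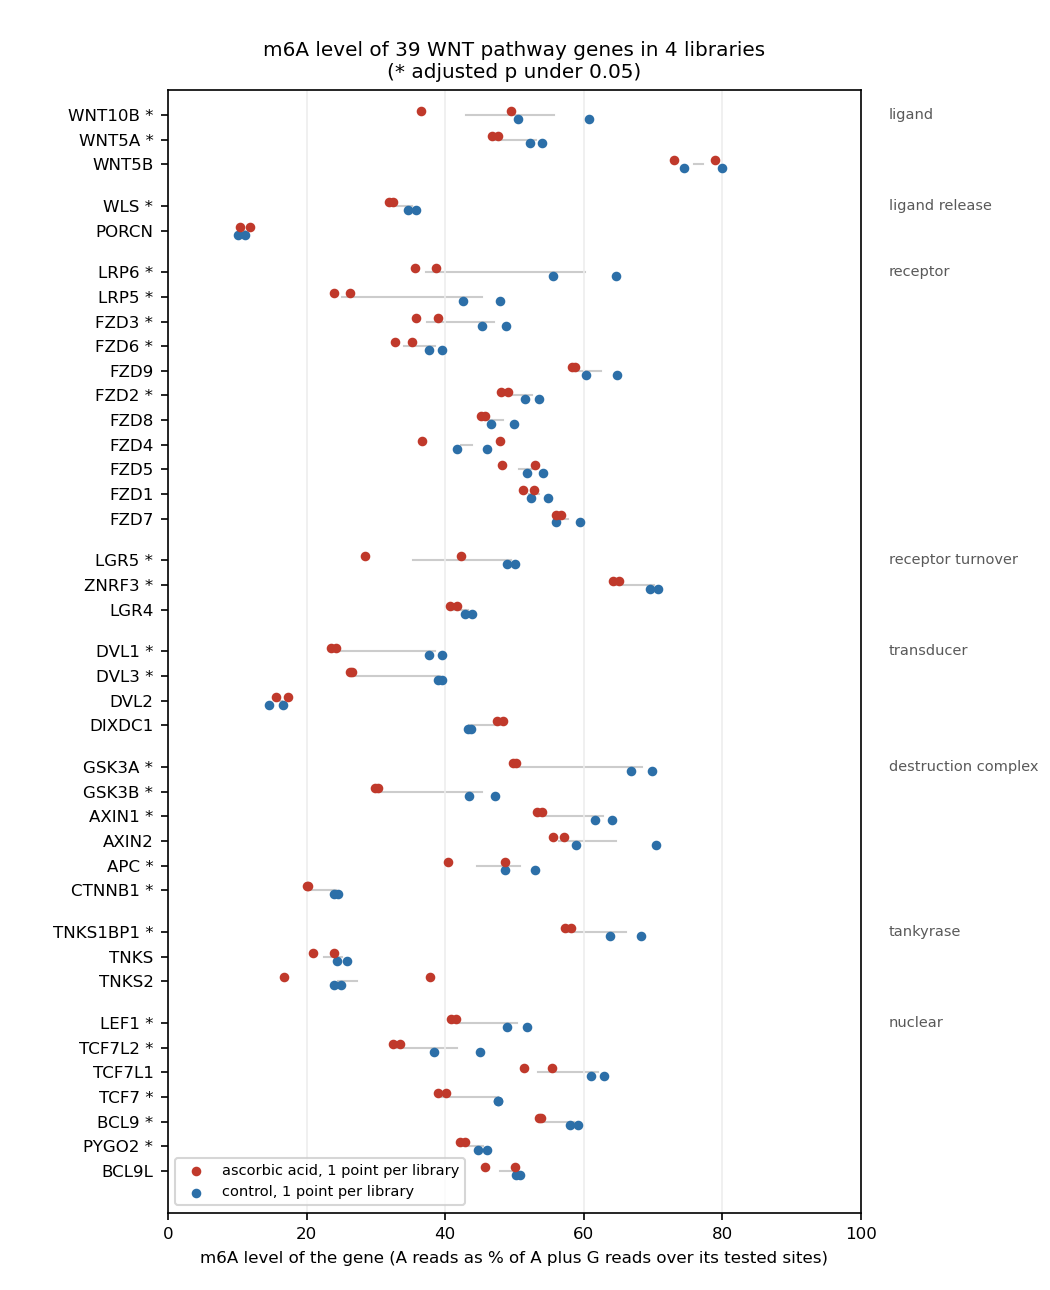
Gene m6A level (x axis, percent of A plus G reads that carry A over the tested sites) for the 39 genes, grouped by role; red points are the 2 ascorbic acid libraries, blue points the 2 control libraries, grey bars join the group means, and an asterisk marks genes that fell. LRP6 and LRP5 have the widest gaps, with 35.7% and 38.7% against 55.6% and 64.7% for LRP6, while FZD7 and DVL2 have overlapping points.

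The co-receptors LRP5 and LRP6, single-pass proteins that are phosphorylated inside the cell when a ligand joins them to an FZD receptor, had the largest gene falls of the 39. LRP6 (chromosome 12, 12116025 to 12267044, minus strand) had 35.7% and 38.7% m6A in ascorbic acid cells, against 55.6% and 64.7% in control cells. Both ascorbic acid libraries were low and the groups did not overlap. Means were 37.2% ± 2.11 in ascorbic acid cells and 60.1% ± 6.44 in control cells (SD, n = 2 each). The log2 odds changed by -1.35 ± 0.156 (SE), with an edgeR adjusted p of 3.32e-07. LRP5 (chromosome 11, 68298412 to 68449275, plus strand) had 24.0% and 26.2% in ascorbic acid cells and 42.6% and 47.9% in control cells, again without overlap, and its log2 odds changed by -1.30 ± 0.111 (SE, edgeR adjusted p 4.64e-09).

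In LRP6, 3 of the 4 falls lay 65159 nt or more from the gene end. At position 12181287, 85757 nt from the gene start, the level was 12.7% and 21.1% in ascorbic acid cells and 58.5% and 78.6% in control cells (53 to 76 reads). This mean change of -51.7 points was the largest among the sites with at least 50 reads in every library. At 12181184, 103 nt further on, it was 44.0% and 45.9% in ascorbic acid cells and 85.3% and 86.6% in control cells. Both sites passed with adjusted p-values of 4.35e-09 and 4.98e-09, and the control pair at the first site was itself spread over 20 points. A shallower site, 12244541, singled out after its values were seen, had 50.0% and 40.0% in ascorbic acid cells against 90.5% and 93.9% in control cells on 21 to 35 reads. The 5 sites within 5324 nt of the gene end, listed from 12121349 on, had smaller changes of -3.79 to -20.2 points, and 1 of them fell.

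LRP5 had 9 tested sites, of which 5 fell and 8 were lower. Position 68386468 had 11.3% and 16.0% in ascorbic acid cells and 45.8% and 51.9% in control cells. Position 68413899 had 10.0% and 14.8% in ascorbic acid cells and 38.9% and 46.5% in control cells, on 200 to 236 reads. Neither site's groups overlapped, and the first ascorbic acid library at the second site stood at 10%, the lowest level that the lists hold. The deepest LRP5 site, 68449060 at 215 nt from the gene end, singled out after its values were seen, had 43.9% and 47.5% in ascorbic acid cells against 68.2% and 71.2% in control cells. Over both co-receptors, 5 sites had a control level under 30%; 4 of these were lower, with a median change of -4.91 points, and none passed by edgeR. One of them, the LRP5 site 68347961, had 15.9% and 17.0% in ascorbic acid cells and 17.8% and 14.4% in control cells.

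The FZD receptors, seven-pass proteins whose outer domain binds the ligand's lipid, held many of the pathway's sites, 128 of the 400 in 9 genes. Only 6 of these sites fell and none rose by edgeR, although 105 of the 128 were lower in ascorbic acid cells. Limma and DESeq2 gave no FZD rise either, and 1 site was higher at an unadjusted edgeR p under 0.05. Pooled over all FZD sites, the level was 49.8% in each ascorbic acid library and 51.7% and 54.1% in the control libraries, a difference of -3.06 points. Pooled over the 19 sites of LRP5 and LRP6, it was 27.4% and 29.8% in ascorbic acid cells and 46.0% and 52.7% in control cells, a difference of -20.8 points. The difference between the receptor families was not tested. Depth was alike, with a median over sites of the lowest of the 4 libraries of 71 reads for FZD genes and 75 for LRP5 and LRP6.

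FZD sites of high control level were lower in most cases, and few passed. Of the 48 FZD sites at 60% or more in control cells, 41 were lower in ascorbic acid cells. In 24 of the 48 the ascorbic acid pair was below the control pair without overlap, where this held for 75.3% of all sites of the series at that level, and in 1 it was above. The median log2 odds change of the 48 was -0.55. Of the 48, 6 fell (12.5%), against 5 of 7 for LRP5 and LRP6 and 49.0% of all sites in the series at that level. Below 60% no FZD site of 80 passed by edgeR, limma or DESeq2; 8 had an unadjusted edgeR p under 0.05.

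**Figure D2:**
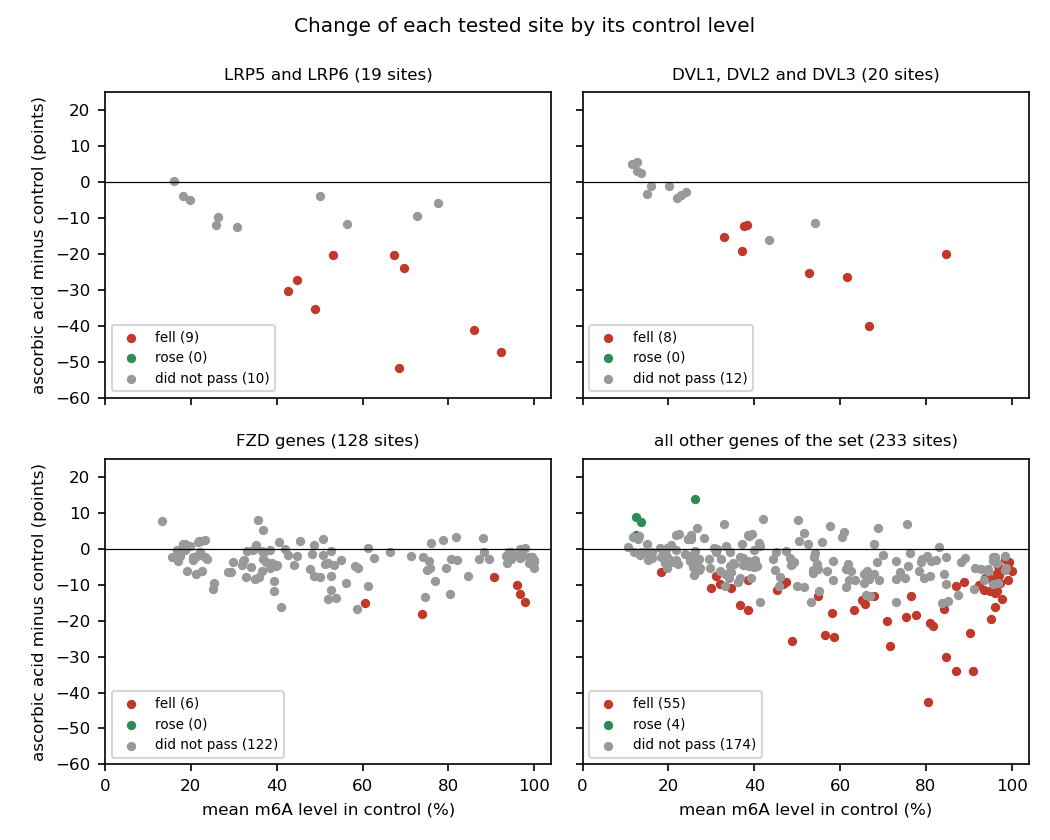
Change in m6A level at each tested site (y axis, ascorbic acid minus control, percentage points) against its mean control level (x axis, percent), with red points for falls, green for rises and grey for sites that did not pass. FZD sites at every control level stay within 20 points of 0, while 9 of the 19 sites of LRP5 and LRP6 lie more than 20 points below it.

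Among the FZD genes, FZD3, FZD6 and FZD2 fell. FZD3, which acts in planar polarity and axon guidance, had 38.9% and 35.7% in ascorbic acid cells and 48.8% and 45.3% in control cells, with no overlap, a log2 odds change of -0.57 ± 0.125 (SE) and an edgeR adjusted p of 0.000614. FZD6 had 35.2% and 32.8% in ascorbic acid cells against 39.6% and 37.6% in control cells. FZD2 had 49.0% and 48.1% in ascorbic acid cells against 51.5% and 53.5% in control cells. The falls of FZD6 and FZD2 passed in 6 of 12 settings each, and that of FZD3 in all 12.

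FZD7 and its close relative FZD1 hold many sites of the set and did not pass. FZD7 had 55.9% and 56.8% in ascorbic acid cells and 56.0% and 59.5% in control cells over 30 sites, the groups overlapping. No FZD7 site passed by edgeR or DESeq2, 1 did by limma and 5 had an unadjusted edgeR p under 0.05; their changes ran between -7.65 and 7.69 points. FZD1 had 51.3% and 52.8% in ascorbic acid cells and 52.3% and 54.8% in control cells over 19 sites. Of the others with at least 10 sites, FZD8 had 45.7% and 45.2% in ascorbic acid cells and 46.6% and 50.0% in control cells, FZD5 had 48.1% and 53.0% against 51.7% and 54.2% in control cells, and FZD9 had 58.7% and 58.3% against 60.3% and 64.8% in control cells. Their adjusted p-values were 0.128 for FZD8, 0.375 for FZD5 and 0.0757 for FZD9, and only FZD5 overlapped. FZD4, with 3 sites, overlapped as well. With all 4 libraries the log2 odds changes of FZD7, FZD8 and FZD9 were -0.08, -0.17 and -0.25. Without control library 1 they were -0.19, -0.26 and -0.39. Without control library 2 those of FZD7 and FZD8 were 0.02 and -0.07, so the values depended on single control libraries.

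The most fully methylated FZD sites that did not pass are given as a description, since not passing is how they were chosen. FZD1 at position 91266676 had 97.1% and 97.3% in ascorbic acid cells and 98.9% and 100% in control cells. FZD9 at 73435604 had 96.8% and 96.2% against 100% and 98.8% in control cells, and at 73435428 it had 98.4% and 95.7% against 100% and 98.6%. FZD7 at 202036336 had 94.3% and 95.5% in ascorbic acid cells and 100% and 97.7% in control cells, and at 202035609 it had 94.5% and 98.6% against 98.2% and 99.3%. These were the 5 highest control levels among sites with at least 50 reads that did not pass; their adjusted p-values were 0.0554 to 0.297, and the ascorbic acid libraries were the lower in 4 of the 5 without overlap. In points these changes were -2.17 to -3.95, but near 100% few points remain, and in log2 odds they were -1.35 to -2.09 with SEs of 0.791 to 1.21.

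Gene span differed along with these groups. Of the 9 FZD genes, 7 span less than 10000 nt, and 1 of those 7 fell. Among members with at least 3 tested sites, 3 of 10 genes under 10000 nt fell, against 8 of 11 at 10000 to 50000 nt and 12 of 15 at 50000 nt or more. Over all genes with at least 3 sites the shares were 56.6%, 71.8% and 71.9%. The part of gene span in the FZD values was not tested.

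**Figure D3:**
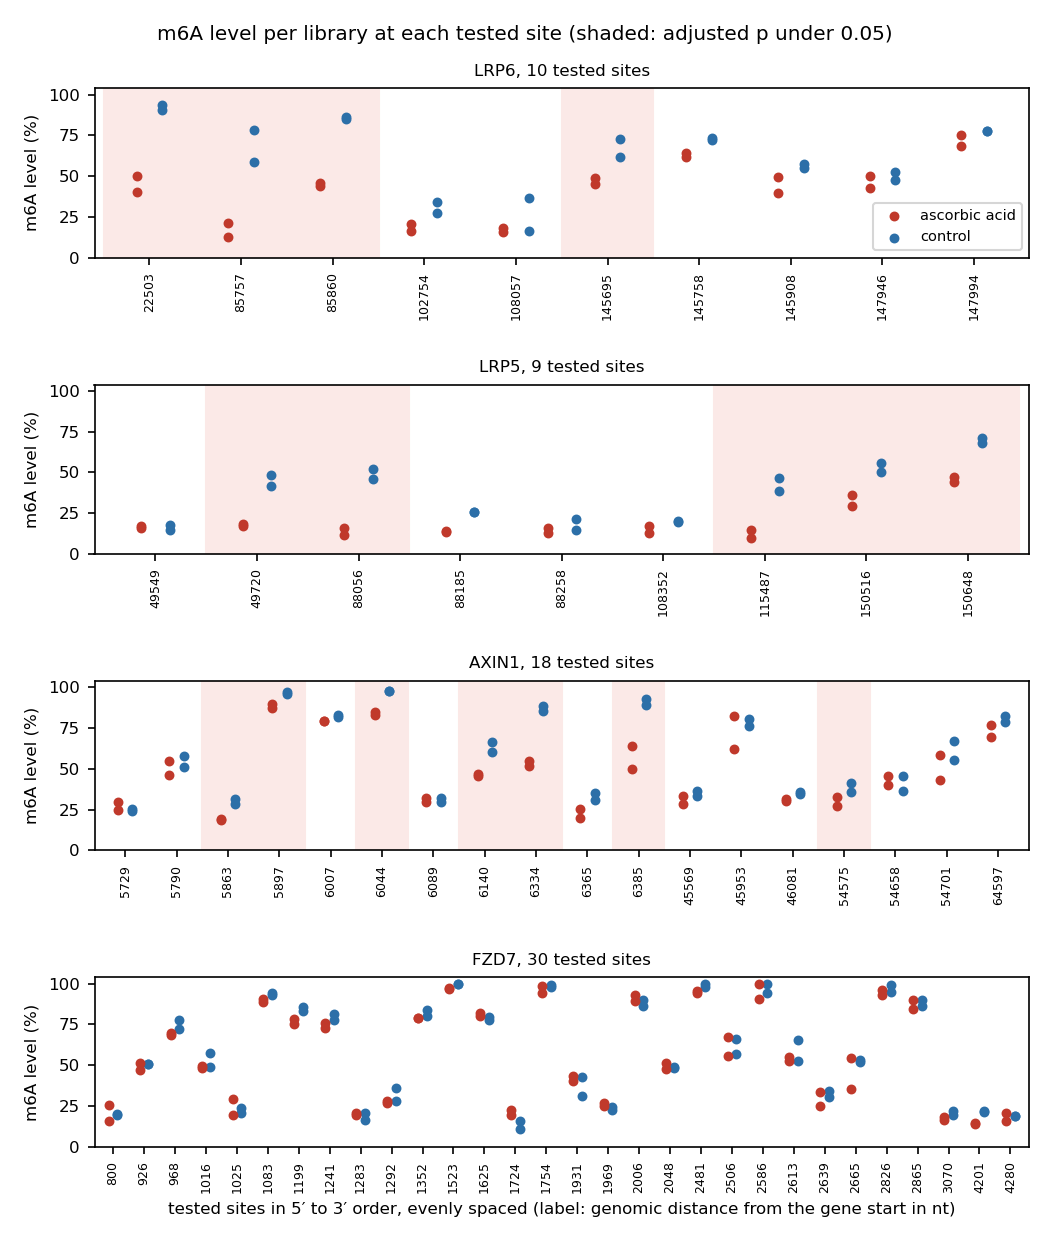
m6A level (y axis, percent) at each tested site of LRP6, LRP5, AXIN1 and FZD7, in 5′ to 3′ order with the genomic distance from the gene start in nt as label; red points are ascorbic acid libraries, blue points control libraries, and shading marks sites that fell. The 2 groups separate by up to 51.7 points in LRP6 and by no more than 7.69 points in FZD7.

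Genes that set how much receptor stays at the surface were mixed. ZNRF3, a ligase that removes FZD receptors from the membrane, had 64.2% and 65.1% in ascorbic acid cells and 69.6% and 70.8% in control cells, with no overlap and an edgeR adjusted p of 0.00319. Its 4 sites that fell were close to full in control cells; at position 29049890 the level was 91.9% and 87.8% in ascorbic acid cells and 95.4% and 97.6% in control cells. LGR5, a receptor for R-spondins, fell with 28.4% and 42.3% in ascorbic acid cells and 49.0% and 50.0% in control cells, on 3 sites of 23 to 51 reads, and passed in 8 of 11 settings. Without ascorbic acid library 1 its log2 odds change was -0.42 (edgeR adjusted p 0.342), against -0.83 with all 4 libraries. The LGR5 site that fell lies near the gene start: 71440085 had 17.5% and 28.6% against 42.9% and 54.8% in control cells, while the site near the gene end, 71584687, had 57.7% and 70.3% against 58.6% and 56.5%. The related LGR4 had 41.7% and 40.6% in ascorbic acid cells and 42.8% and 43.9% in control cells and did not pass (edgeR adjusted p 0.236), with 3 sites falling and 2 rising among the 11 of its single cluster. Without sites 6 nt apart from another listed site, the LGR4 log2 odds change was -0.48 (edgeR adjusted p 0.000454), against -0.13 with them. Its site at 27367871 had 83.3% and 84.5% against 93.8% and 98.5% in control cells. The sites of ZNRF3, LGR5 and LGR4 given here were singled out after their values were seen.

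Of the ligands, WNT5A, which signals mainly outside β-catenin, had 46.8% and 47.6% in ascorbic acid cells and 52.2% and 53.9% in control cells (edgeR adjusted p 0.0141, passing in 6 of 12 settings). Only 1 of its 16 sites fell. WNT10B, a β-catenin ligand, fell with 36.5% and 49.5% in ascorbic acid cells and 60.7% and 50.6% in control cells; the second ascorbic acid library lay close to the second control library, and the fall passed in 7 of 12 settings. Its log2 odds change was -0.71 with all 4 libraries, -0.35 without ascorbic acid library 1 (edgeR adjusted p 0.303) and -0.42 without control library 1 (adjusted p 0.153). WNT5B averaged 75.9% ± 4.21 in ascorbic acid cells and 77.2% ± 3.88 in control cells (SD, n = 2 each) and did not pass. WNT3, WNT3A, WNT8B and WNT11 were listed with 15 to 28 reads and not in all 4 libraries, so they were not tested.

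Release of ligands needs PORCN, which attaches their lipid, and WLS, which carries them to the membrane. PORCN had a single site, at 10.4% and 11.8% in ascorbic acid cells and 10.1% and 11.2% in control cells, and did not pass. WLS had 32.4% and 31.9% in ascorbic acid cells and 34.6% and 35.8% in control cells (edgeR adjusted p 0.0365, 7 of 12 settings). Its log2 odds change was -0.20 over all its tested sites and -0.53 without sites 6 nt apart from another listed site (adjusted p 8.75e-06). Within WLS the sites moved in both directions. Position 68126086, singled out after its values were seen, had 80.0% and 79.7% in ascorbic acid cells and 95.5% and 96.8% in control cells on 624 to 821 reads, with an edgeR adjusted p of 9.0e-15. Only 13 nt away, 68126099 averaged 15.5% ± 0.593 in ascorbic acid cells and 19.3% ± 1.79 in control cells (SD, n = 2 each) and did not pass.

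The DVL genes encode the scaffolds that carry the signal from receptor to destruction complex. DVL1 had 23.6% and 24.3% m6A in ascorbic acid cells and 37.6% and 39.5% in control cells, a difference of -14.7 points with an edgeR adjusted p of 3.67e-09. DVL3 had 26.5% and 26.2% in ascorbic acid cells and 39.5% and 39.0% in control cells, a change of -0.85 ± 0.0943 (SE, edgeR adjusted p 1.97e-07). In both genes the pairs were tight and far apart. DVL2 had 15.6% and 17.3% in ascorbic acid cells and 14.6% and 16.6% in control cells, overlapping, and none of its 5 sites passed by edgeR, limma or DESeq2, with 2 at an unadjusted edgeR p under 0.05. The direction of DVL2 depended on the sites taken: its log2 odds change was 0.09 over all 5 and -0.21 without sites 6 nt apart from another listed site (edgeR adjusted p 0.455 and 0.164). All 5 DVL2 sites had control means of 22.0% or less; whether DVL2 differs from its paralogs was not tested.

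Of the 7 DVL1 sites 3 fell, a pair of them near the gene end. Position 1336152 (chromosome 1, minus strand, 874 nt before the gene end) had 24.7% and 28.5% in ascorbic acid cells and 67.8% and 65.4% in control cells on 457 to 587 reads, the smallest adjusted p of the named falls at 2.08e-17. Position 1336142, 10 nt away and so covered by many of the same reads, had 34.1% and 36.5% against 59.4% and 64.0% in control cells. Further downstream a site did not pass: 1335911 had 23.2% and 19.6% in ascorbic acid cells and 24.0% in both control libraries on 728 to 987 reads. DVL3 fell near its start, where 184155730, 353 nt into the gene, had 31.1% and 24.2% in ascorbic acid cells and 51.8% and 53.8% in control cells. It also fell towards its end, where 184170683 had 65.3% and 64.0% against 83.0% and 86.5% in control cells and 184170698, 15 nt on, had 18.9% and 17.4% against 37.0% and 37.4%. The sites at 1335911, 184170683 and 184170698 were singled out after their values were seen.

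DIXDC1, which shares with DVL and AXIN the domain through which they polymerise, went the other way in level: 47.5% and 48.3% in ascorbic acid cells, against 43.2% and 43.7% in control cells. Both ascorbic acid libraries were higher, but the gene did not pass (log2 odds change 0.26 ± 0.141, SE; edgeR adjusted p 0.121). Of its 8 sites, 6 were higher in mean and 1 rose. That site, 112019740, had 40.7% and 39.6% in ascorbic acid cells and 23.3% and 29.2% in control cells on 73 to 111 reads, with an edgeR adjusted p of 0.0328, and it passed in 6 of 12 settings.

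In the destruction complex, 5 of 6 genes fell, where 56.8% of all genes and 68.3% of those with at least 3 sites did. The kinase GSK3A had 49.7% and 50.2% in ascorbic acid cells and 66.8% and 69.9% in control cells, a log2 odds change of -1.12 ± 0.199 (SE, edgeR adjusted p 7.97e-05). All 4 of its tested sites lie before the RefSeq start of the gene, 105 to 282 nt upstream, and the 2 that fell, 42242783 and 42242707, are those with GGACT printed above. GSK3B had 30.3% and 29.8% in ascorbic acid cells and 43.4% and 47.2% in control cells, a change of -0.95 ± 0.12 (SE, edgeR adjusted p 1.13e-06). Its 4 falls all lay between 580 and 914 nt from the gene start, and the first of them, 120093867, had 21.3% and 20.9% against 35.4% and 37.8% in control cells. The fifth GSK3B site, 5136 nt from the gene end, had 19.2% and 13.8% in ascorbic acid cells and 15.3% and 14.8% in control cells. These GSK3B sites were singled out after their values were seen.

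AXIN1, the scaffold present in limiting amount, had 53.2% and 54.0% in ascorbic acid cells and 61.6% and 64.1% in control cells over 18 sites (log2 odds change -0.55 ± 0.0877, SE; edgeR adjusted p 2.18e-05). Of its 7 falls, 6 lay between 5863 and 6385 nt from the gene start. Position 346389 had 54.5% and 51.7% in ascorbic acid cells and 85.8% and 88.4% in control cells on 112 to 143 reads. Within the same stretch, 346634, singled out after its values were seen, had 32.4% and 29.7% against 29.4% and 32.0% in control cells. Sites that fell and a site that did not pass thus stood side by side. AXIN2, a paralog that is itself a known target of the pathway, had 55.6% and 57.1% in ascorbic acid cells and 58.8% and 70.5% in control cells and did not pass (edgeR adjusted p 0.0685). The value depended on single control libraries: the log2 odds change was -0.50 with all 4 libraries, -0.88 without control library 1 (adjusted p 0.00249) and -0.14 without control library 2 (adjusted p 0.679).

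APC, the other scaffold, had 48.7% and 40.4% in ascorbic acid cells and 48.6% and 52.9% in control cells. The first ascorbic acid library lay just above the first control library, the edgeR adjusted p was 0.0465, and the fall passed in 7 of 12 settings. Of its 12 sites, 11 were lower and 1 fell. Without ascorbic acid library 2 the log2 odds change was -0.12 (edgeR adjusted p 0.633), against -0.38 with all 4 libraries, and without control library 2 it was -0.26 (adjusted p 0.19). The site that fell, 112819129, singled out after its values were seen, had 45.5% and 30.0% in ascorbic acid cells and 79.3% and 81.6% in control cells, on 29 to 50 reads.

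CTNNB1, the transcript of β-catenin, held the most deeply read site of the set. Position 41233553 had 11.9% and 11.6% in ascorbic acid cells and 18.1% and 18.4% in control cells on 1567 to 1964 reads. The groups were far apart for their spread, with means of 11.8% ± 0.24 in ascorbic acid cells and 18.3% ± 0.218 in control cells (SD, n = 2 each). The log2 odds changed by -0.745 ± 0.118 (SE, edgeR adjusted p 2.41e-06). This fall passed in 11 of 12 settings and not with limma (adjusted p 0.0859). The ascorbic acid levels stood near 10%, the lowest level that the lists hold. Over its 6 sites the gene had 20.2% and 20.1% in ascorbic acid cells and 24.5% and 24.0% in control cells. A second site fell near the gene end, while 41239837, only 47 nt from it, had 43.1% and 40.9% against 38.9% and 43.9% in control cells. The site at the first annotated base had 19.3% and 15.2% in ascorbic acid cells and 22.4% and 19.6% in control cells and did not pass.

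Tankyrases add poly-ADP-ribose to AXIN and so mark it for breakdown. TNKS averaged 22.5% ± 2.09 in ascorbic acid cells and 25.1% ± 0.936 in control cells (SD, n = 2 each), and neither it nor TNKS2, with 1 site, passed. TNKS1BP1, a tankyrase-binding protein that is taken in by its name and is no core WNT gene, had 58.1% and 57.3% in ascorbic acid cells and 63.8% and 68.3% in control cells over 27 sites (edgeR adjusted p 7.58e-05). Without it, 70 of 373 sites and 22 of 38 genes fell.

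Among the nuclear factors, 5 of 7 genes fell, where 56.8% of all genes did. The share was 68.3% over all genes with at least 3 sites, a minimum that TCF7L1 among the 7 does not reach. LEF1, a DNA-binding partner of β-catenin, had 41.6% and 40.9% in ascorbic acid cells and 48.9% and 51.9% in control cells over 13 sites, 6 of which fell (edgeR adjusted p 3.63e-05). The 6 lay at both ends of the gene. TCF7 had 40.1% and 38.9% in ascorbic acid cells and 47.6% in both control libraries, and its site 134146371 had 59.6% and 60.7% against 79.6% and 82.2% in control cells (edgeR adjusted p 3.08e-06). TCF7L2 had 32.5% and 33.5% in ascorbic acid cells and 38.4% and 45.1% in control cells and passed in 11 of 12 settings. TCF7L1, mostly a repressor, had 1 tested site, at 55.4% and 51.4% against 63.0% and 61.1% in control cells, and did not pass.

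The co-activators BCL9, BCL9L and PYGO2 follow. BCL9, which binds β-catenin, had 53.6% and 53.8% in ascorbic acid cells and 59.2% and 58.0% in control cells over 27 sites, 9 of which fell, and its log2 odds changed by -0.29 ± 0.0778 (SE, edgeR adjusted p 0.00371, passing in 9 of 12 settings). Its site 147619651 had 64.1% and 56.4% in ascorbic acid cells and 85.7% and 77.5% in control cells. PYGO2, which joins BCL9 to chromatin, had 42.8% and 42.1% in ascorbic acid cells and 44.7% and 46.0% in control cells on 9002 to 10605 reads, a change of -0.17 ± 0.0675 (SE, edgeR adjusted p 0.0339). The fall passed in 7 of 12 settings and not with limma (adjusted p 0.194), with DESeq2 (0.112) or without either ascorbic acid library (0.205 and 0.326). Those reads are summed over 18 sites, only 1 of which fell. The BCL9 paralog BCL9L averaged 47.8% ± 3.05 in ascorbic acid cells and 50.5% ± 0.338 in control cells (SD, n = 2 each) and did not pass.

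Rises were few. Beside the DIXDC1 site, LGR4 rose at 27368400, with 24.1% and 18.2% in ascorbic acid cells and 10.2% and 14.6% in control cells. It also rose at 27368394, with 24.6% and 17.4% against 11.9% and 15.2% in control cells. These LGR4 sites lie 6 nt apart and so are covered by many of the same reads. WLS rose at 68153581, with 17.0% and 15.5% in ascorbic acid cells and 11.5% and 13.5% in control cells. In none of these did the groups overlap, and their adjusted p-values were 0.00553, 0.0236 and 0.0454. Each of these 3 sites has another listed site exactly 6 nt away, as do 16 of the 400 sites (4.0%), 3.99% of all sites and 71.7% of the 173 rises of the series. What this spacing adds to the rises was not tested. The LGR4 rises passed in 7 of 11 settings and the WLS rise in 6 of 11.

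Whether the transcripts themselves changed was read from the deposited gene coverage, scaled per library and tested with limma; its unit is not defined in the labels or headers, and in such bulk samples fewer cells of a type and less RNA per cell cannot be told apart. None of the 39 genes passed in either direction, where 0.253% of all genes rose and 0.0422% fell. At an unadjusted p under 0.05, 3 were higher and 3 lower. LRP6 coverage was 45.1 and 46.7 in ascorbic acid cells and 44.6 and 46.9 in control cells, and LRP5 coverage was 119 and 125 against 133 and 113 in control cells, so that the co-receptors had log2 changes of 0.0037 and -0.0053 beside their m6A falls. The largest positive changes were those of TCF7L1, with 63.3 and 61.3 in ascorbic acid cells against 48.8 and 51.0 in control cells (log2 change 0.31, limma adjusted p 0.107), TCF7 (0.18) and DIXDC1 (0.18). TCF7L2 (-0.22), FZD3 (-0.18) and WLS (-0.18) had the largest negative ones.

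**Figure D4:**
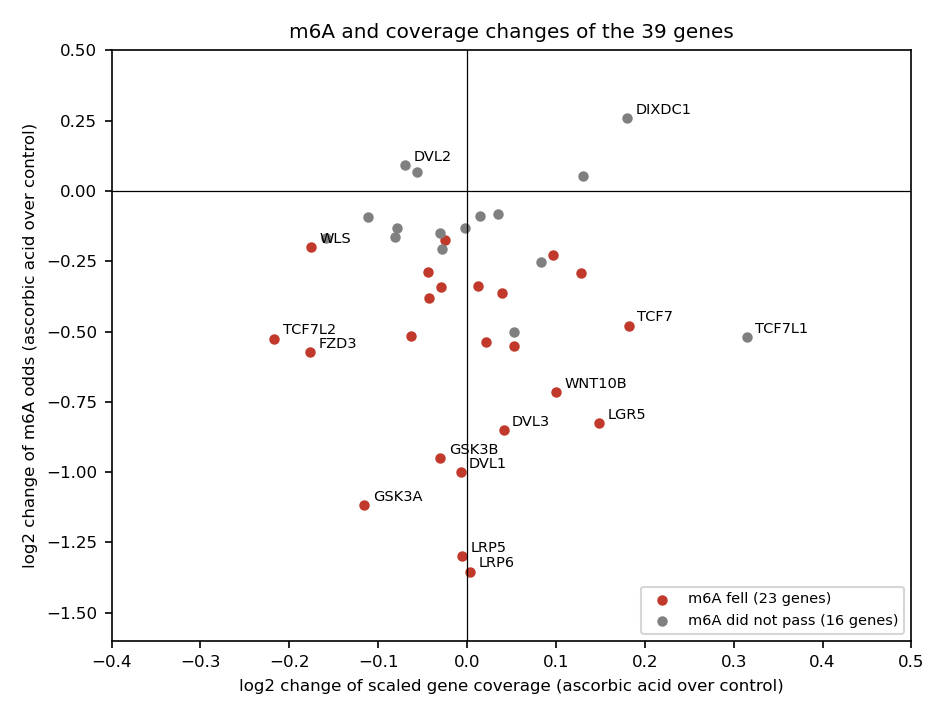
Log2 change of m6A odds per gene (y axis) against log2 change of scaled gene coverage (x axis), both ascorbic acid over control; red points are the 23 genes whose m6A fell and grey points the 16 that did not pass. Coverage changes stay between -0.22 and 0.31, and LRP5 and LRP6 sit near 0 on that axis at the bottom of the plot.

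Other genes of the pathway, taken from 5 lists, showed falls too. Those named below were picked for having some of the smallest edgeR p-values of their list. Of 153 listed genes 101 had tested sites, 60 fell and none rose by edgeR, beside the 56.8% of all genes that fell. At an unadjusted edgeR p under 0.05 none was higher either; DESeq2 gave 0 rises and limma 1. Among modulators outside the cell and at the receptor, 5 of 10 fell; GPC3, a glypican, had 26.3% and 25.5% in ascorbic acid cells and 46.7% and 44.1% in control cells. On the list of cytoplasmic transducers 14 of 29 fell. STUB1, a ubiquitin ligase, had 44.9% and 45.0% in ascorbic acid cells against 78.0% and 78.3% in control cells. It stands here by its place on a list drawn up with earlier results of these data known. CSNK1G2, a casein kinase that phosphorylates LRP6, had 36.1% and 33.9% against 64.0% and 66.4% in control cells. Both pairs were tight and did not overlap.

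For the counts that follow, 56.8% of all genes fell, and the lists were not matched to them in number of sites. The nuclear partners had 18 falls of 23. HDAC2, a histone deacetylase, had 48.9% and 50.9% in ascorbic acid cells and 66.5% and 68.3% in control cells on a single site. CHD8, a chromatin remodeller that binds β-catenin, had 36.9% and 36.1% against 45.7% and 47.9% in control cells. The planar polarity and non-canonical branch had 18 falls of 26 and a median log2 odds change of -0.65, against -0.39 over all genes. Its cadherins CELSR3 and CELSR2 had 47.8% and 46.7% against 69.3% and 71.7% in control cells, and 40.6% and 38.9% against 52.3% and 54.7% in control cells. Of known transcriptional targets, 5 of 13 fell, among them VEGFA, a growth factor for blood vessels, with 56.3% and 55.0% in ascorbic acid cells and 65.2% and 68.1% in control cells. Whether these branches differ from each other was not tested.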

How the data were processed

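Each of the 4 libraries came as its own list of called m6A sites. The A and A plus G counts per site are whole read counts as deposited by the authors without scaling. The deposited m6A level is the fraction of A among A and G reads, and the conversion rate is a second deposited fraction, 1 value per gene. Gene coverage is a signal deposited by the authors, with no stated unit. Each site's p-value, raw and adjusted, is, per the file headers, the authors' own test of the site and was used for nothing but describing the lists. STAR, Trimmomatic 0.39 and the build GRCh38 (hg38) are named in the submitters' processing notes; the site caller, and whether PCR duplicates were collapsed, were not given in the sources used here. The lowest values in any list were 15 reads (A and G together), 5 reads with A and a level of 10%, so a fall to under 10% is not among the falls and a gain from under 10% is not among the rises.

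Sites in all 4 lists, each time with 20 reads or more, went into the quasi-likelihood test of edgeR 4.0.16 on A and G counts, with library terms and ascorbic acid as an effect on the odds of A. Genes were tested likewise on the counts of their tested sites added up. Coverage was scaled by median ratios to each gene's geometric mean, and limma 3.58.1 was applied to log2 values with 1 added. Tests ran over all sites or genes and p-values were adjusted over all of them (Benjamini-Hochberg, two-sided, threshold 0.05). Each procedure was run on simulated data. For sites and genes, the simulated libraries of a group differed by read counting alone, so this does not measure false calls in these data. DESeq2 1.42.0 and limma on log2 odds, read minimums, leaving out sites 6 nt apart, a robust fit, the replicate number and leaving out each library were the alternatives. R 4.3.3 and Python 3.11.15 were used.

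The genes, the lists and the rule for named sites were chosen with earlier results of these data known. Named sites are the 12 largest significant falls that had 50 reads or more in each library and no overlap (at most 2 per gene), every rise, the deepest site, and the 5 highest in control that did not pass; others are said to be singled out. Positions are the authors' (GRCh38), and gene spans are those of RefSeq GRCh38.p14. No transcript annotation was used, so exon or UTR is not stated. Counts of reads limit precision: the lowest library's depth at a site had a median of 75 reads over the 400 sites.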

Additional observations from a re-analysis of the deposited data

How the results depend on the processing

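No named site or gene that passed changed direction in any setting. Gene levels from added-up reads give deep sites more weight. With the mean of site levels instead, the change in points moved by at least the larger group SD in 8 genes and by less in 31. CTNNB1 went from -4.10 to -2.34 points and DVL3 from -12.9 to -14.9. Of genes that did not pass, DVL2 turned to -0.21 without sites 6 nt apart, and BCL9L, DVL2, FZD4, FZD5, FZD7, PORCN, TNKS2 and WNT5B had the opposite sign in at least 1 setting, without passing there. Site falls (78) came to 43 with limma and 35 with DESeq2, and to between 48 and 71 when each library was left out, with 48 without ascorbic acid library 2 and 51 without control library 2. Site rises (4) came to 0 with limma and 0 with DESeq2, 2 without sites 6 nt apart, and between 0 and 4 when each library was left out: 0 without ascorbic acid library 1 or control library 1 and 2 without ascorbic acid library 2. Gene falls (23) came to 14 with limma and 15 with DESeq2, and to between 15 and 25 when each library was left out, with 15 without ascorbic acid library 1. The cause of these shifts was not tested, and a lone library is assumed to vary like the other group. The median site change of -4.28 points lay between -5.09 and -3.87 without each library and was -4.17 with the unconverted share subtracted. With coverage, 0 genes passed in any setting.

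The replicate numbers share only a number: deviations of same-numbered libraries from their group means correlated at -0.0053 over sites and -0.0042 over genes, with 2 pairs. With the replicate number as a block, 80 sites fell, 6 rose, 23 genes fell and 0 rose, though PYGO2 no longer passed (adjusted p 0.0616), while AXIN2 did (0.0408), as did the FZD7 site 202036336 (0.0408). Low depth limits sites such as LRP6 12244541 (21 to 35 reads) and those of LGR5, APC and WNT10B. Of the 12 named falls, 10 passed in all 12 settings.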

Other observations

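Over the 218950 sites listed in any library of the series, 6026 were in both ascorbic acid libraries and no control library, and 6664 the other way round. For the WNT pathway genes those counts were 25 and 23 of 966 sites, of which 422 were in all 4 libraries and 265 in 1 library alone. Of the genes left untested, WNT3 had a site at position 46768493 (chromosome 17, minus strand) with 22 A of 28 reads and 20 A of 28 reads in ascorbic acid cells and 21 A of 21 reads in control library 2, while control library 1 did not list it. WNT3A was listed in ascorbic acid cells alone, with 25 and 16 reads at 228059104, close to the lowest depth of 15 reads in the lists, and no change was read from it.

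By distance to the gene end, member sites under 1000 nt fell at 9 of 42, those at 1000 to 5000 nt at 20 of 184, and those at 5000 nt or more at 49 of 174. Over all sites in placed genes the shares were 29.3%, 22.6% and 31.4%.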
